A study of Mus musculus with 3 samples.

Results

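The 37 genes of the mouse mitochondrial genome were examined for their recovery with Flag-tagged FTO in white fat. They are all genes of the count table whose symbol begins with mt-, 37 of 39179 genes in all, and they comprise 2 ribosomal RNA, 13 protein-coding and 22 transfer RNA genes. Lysates came from adipose tissue of C57BL/6 mice aged 16 weeks that carried a Flag-FTO transgene and had gone without food overnight. RNA was recovered with an anti-Flag M2 monoclonal antibody in 2 libraries (Flag-IP 1 and Flag-IP 2) and with IgG in 1 library (IgG-IP). All 3 libraries therefore share the transgene, the strain, the age and the fast, and they differ in the antibody. Nothing in the sources used here tells the promoter of the transgene or how many animals stand behind a library. The p-values therefore measure the spread between these libraries alone, which may be technical.

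FTO is a dioxygenase that removes the methyl group from N6-methyladenosine of RNA. The antibody retrieves the tagged protein together with attached RNA, and the IgG library gives the RNA recovered without recognition of the tag. The mitochondrial genome is a small circular DNA that is read from both strands as long precursor RNAs. In these precursors the transfer RNAs lie between the ribosomal and messenger RNAs, and cutting at the transfer RNAs releases the mature molecules. The ribosomal RNAs build the mitochondrial ribosome, the transfer RNAs serve it, and the messengers encode subunits of respiratory complexes I, III, IV and V, which fat cells use to oxidise fuel.

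The sequences below (GENCODE M21 transcripts, GRCm38, 5′ to 3′ in the sense of each gene) show the transfer RNA genes at the ends of the range of fold changes. Capitals mark the anticodon, found as the matching triplet in a loop closed by a paired stem. mt-Tm, mt-Tq and mt-Ti fell furthest in Flag-IP. mt-Th and mt-Te fell least, and mt-Th did not fall relative to the mitochondrial messengers or with a correction for GC content.
mt-Tm (chrM:3845-3913, plus strand): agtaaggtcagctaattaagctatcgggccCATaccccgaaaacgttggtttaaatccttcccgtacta
mt-Tq (chrM:3772-3842, minus strand): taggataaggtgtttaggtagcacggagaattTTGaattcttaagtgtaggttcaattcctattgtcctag
mt-Ti (chrM:3706-3774, plus strand): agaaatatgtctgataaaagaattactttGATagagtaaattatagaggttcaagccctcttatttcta
mt-Th (chrM:11546-11612, plus strand): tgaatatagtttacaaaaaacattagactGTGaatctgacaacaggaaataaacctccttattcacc
mt-Te (chrM:14071-14139, minus strand): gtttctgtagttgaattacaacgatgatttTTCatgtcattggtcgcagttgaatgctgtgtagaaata

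The next sequence is shown because the direction of change turned within it. It runs from the last 30 bases of mt-Rnr1 through the whole of mt-Tv, in capitals here, to the first 30 bases of mt-Rnr2, with no base between the genes (GRCm38, plus strand).
mt-Rnr1/mt-Tv/mt-Rnr2 (chrM:995-1123): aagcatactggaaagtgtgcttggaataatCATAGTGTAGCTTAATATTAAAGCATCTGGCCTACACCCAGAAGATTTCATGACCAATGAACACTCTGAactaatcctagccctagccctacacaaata

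Flag-IP 1 held 98227791 counts, Flag-IP 2 held 95824218 and IgG-IP held 74176962. Of these, 0.720% and 0.736% in the Flag-IP libraries and 0.178% in IgG-IP lay on mitochondrial genes. Summed over its members in Flag-IP 1, Flag-IP 2 and then IgG-IP, the white adipocyte list gave 54.8, 41.6 and 43.3 CPM (counts relative to the library total). Most of these counts lay on Lpl (3108, 1996 and 2666) and Aqp7 (1932, 1631 and 196), while Adipoq had 18, 14 and 3. None of its 10 genes was at 0 in any library, and 3 of the 10 were higher in Flag-IP (Aqp7, Plin1 and Plin4). The list's median log2 fold change was 1.49, and Cidec (-0.40) and Pparg (-0.55) lay below 0 without passing. Over all tested genes, 5.58% were called higher and 5.77% lower. The 7 brown adipocyte markers summed to 0.937, 1.15 and 1.90 CPM, 1 of 3 tested was lower (Ppargc1a), Ucp1 had 4, 4 and 2 counts, and Cox7a1, Cox8b and Elovl3 were at 0 in IgG-IP. The 7 skeletal muscle markers gave 1.67, 1.09 and 1.02 CPM, with 2 of 5 tested higher (Ckm and Tnnt3) and Acta1 and Mylpf at 0 in IgG-IP. Of the macrophage (1.88, 1.701 and 3.52 CPM), endothelial (2.92, 3.77 and 4.58) and red blood cell markers (0.193, 0.209 and 0.297), none of the 3, 4 and 1 tested passed in edgeR, also at an unadjusted p under 0.05. Their part in the mitochondrial values was not tested. The number of mitochondria in a lysate and the amount of RNA per mitochondrion cannot be told apart in such bulk libraries.

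Both ribosomal RNA genes rose in Flag-IP. mt-Rnr2, the RNA of the large mitochondrial ribosomal subunit (chrM:1094-2675, GRCm38), had 661533 and 650803 counts in Flag-IP and 95938 in IgG-IP. Scaled for library size, this was 678440 ± 48021 normalised counts (SD, n = 2) against 90371, a 7.51-fold increase (log2 fold change 2.91 ± 0.35, SE; edgeR adjusted p = 1.36e-14). mt-Rnr1, the RNA of the small subunit (chrM:70-1024), had 40631 and 49643 counts against 22077, a 2.23-fold increase (1.16 ± 0.27; adjusted p = 0.000827). Neither gene overlapped between the groups, while 40.5% of the 17587 tested genes had both Flag-IP libraries above IgG-IP in normalised counts. The 2 of 2 called higher stand beside 5.58% of the tested genes called higher. Both were called higher under every scaling tried, but mt-Rnr1 did not pass a test against a 1.5-fold change (adjusted p = 0.0908). The standard errors and p-values rest on the spread between the Flag-IP libraries, shared between genes, since IgG-IP has no replicate.

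**Figure D1:**
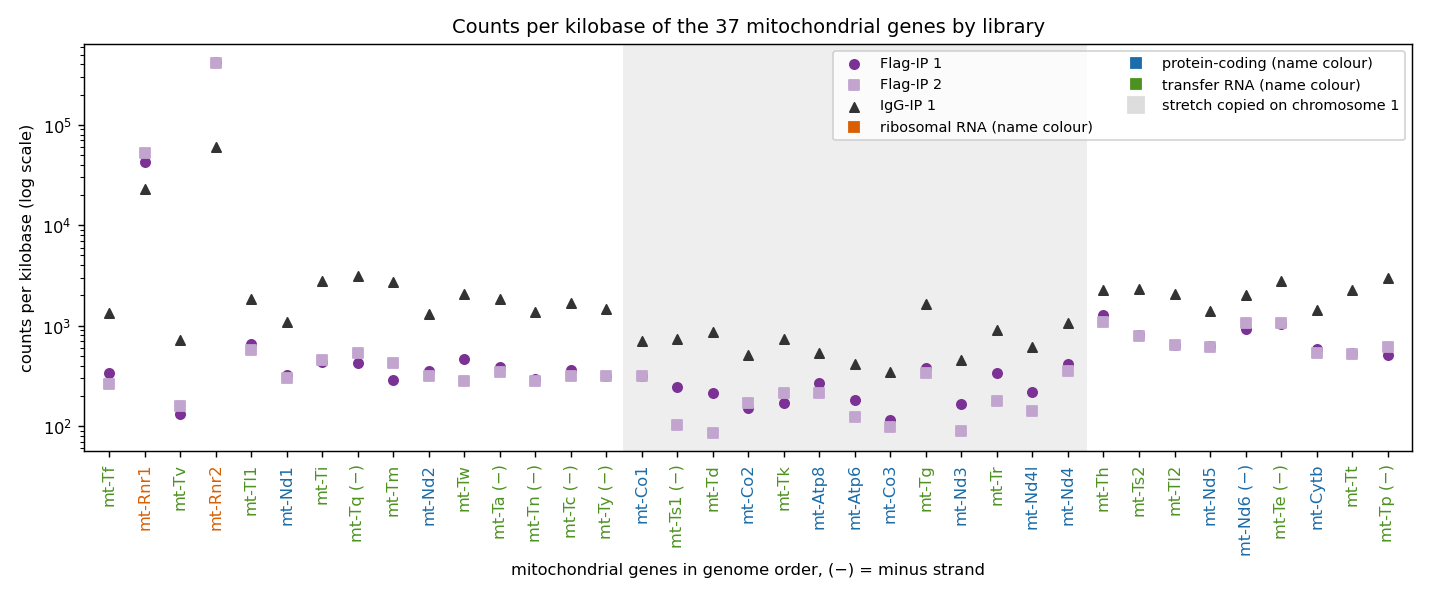
Counts per kilobase of gene (log axis) for the 37 mitochondrial genes in genome order, 1 point per library, with gene names coloured by class and the stretch copied on chromosome 1 shaded. mt-Rnr1 and mt-Rnr2 stand above all other genes and are higher in Flag-IP, while the other 35 genes have both Flag-IP points below the IgG-IP point.

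All 13 protein-coding genes fell in Flag-IP, beside 5.77% of all tested genes called lower. Their median log2 fold change was -1.33 with a range of -1.84 to -0.89, against a median of 0.03 over all tested genes. In raw counts as well as normalised counts both Flag-IP libraries lay below IgG-IP for each of them, which held in normalised counts for 39% of all tested genes. With the correction for GC content described further on, 5 of the 13 passed, and mt-Nd6 and mt-Atp8 had log2 fold changes of 0.056 and 0.047.

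The 7 complex I genes, which encode core subunits of the proton-pumping NADH dehydrogenase, held the ends of the range. mt-Nd2 had 369 and 325 counts in Flag-IP and 1363 in IgG-IP, a 3.57-fold decrease (log2 fold change -1.84 ± 0.21, SE; edgeR adjusted p = 1.07e-15). mt-Nd1 had 309 and 287 counts in Flag-IP and 1034 in IgG-IP (-1.66 ± 0.21). mt-Nd6, the subunit encoded on the minus strand, had 481 and 555 counts in Flag-IP and 1054 in IgG-IP, a 1.86-fold decrease (-0.89 ± 0.21; adjusted p = 0.00103). The Flag-IP libraries stayed apart from IgG-IP in each case. mt-Nd5, the longest mitochondrial gene, had 1153 and 1129 counts in Flag-IP and 2552 in IgG-IP (-1.03 ± 0.22). mt-Nd4 had 577 and 490 in Flag-IP and 1474 in IgG-IP (-1.33 ± 0.21). The shorter complex I messengers had fewer counts and a wider spread between the Flag-IP libraries. mt-Nd4l had 65 and 42 in Flag-IP and 182 in IgG-IP (-1.62 ± 0.28). mt-Nd3 had 58 and 31 in Flag-IP and 158 in IgG-IP (-1.68 ± 0.30), with log2 ratios to IgG-IP of -1.23 for Flag-IP 1 and -2.21 for Flag-IP 2.

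The other complexes lay inside that range. mt-Cytb, the cytochrome b of complex III, had 664 and 606 counts in Flag-IP and 1652 in IgG-IP (-1.24 ± 0.21 on the log2 scale). Of the cytochrome c oxidase core, mt-Co1 fell by 1.02 (489 and 491 counts in Flag-IP, 1089 in IgG-IP), mt-Co2 by 1.53 (103 and 117, against 348) and mt-Co3 by 1.58 (89 and 76, against 271) on the log2 scale. The proton channel subunit of ATP synthase, mt-Atp6, had 123 and 83 counts in Flag-IP and 281 in IgG-IP (-1.31 ± 0.24). Its neighbour mt-Atp8 had 55 and 43 in Flag-IP and 109 in IgG-IP (-1.01 ± 0.32; adjusted p = 0.019). These messengers share 43 bases, so part of their counts cannot be assigned to either. mt-Atp8 and mt-Nd6 were not called in a likelihood ratio test with a common dispersion (adjusted p = 0.0649 and 0.0587).

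All 22 transfer RNA genes fell as well, beside the same 5.77% of all tested genes, with a median log2 fold change of -2.06 and a range of -2.81 to -0.80. With the correction for GC content 9 of the 22 passed. Counts ran from 6 to 86 in the Flag-IP libraries and from 48 to 222 in IgG-IP, so single genes are less precise than the messengers. mt-Tm, which carries methionine, had 20 and 29 counts in Flag-IP and 188 in IgG-IP, a 6.99-fold decrease (-2.81 ± 0.32, SE; edgeR adjusted p = 1.86e-16). mt-Tq, for glutamine, had 30 and 38 in Flag-IP and 222 in IgG-IP (-2.57 ± 0.29). mt-Ti, for isoleucine, had 30 and 31 in Flag-IP and 192 in IgG-IP (-2.52 ± 0.30). These 3 genes form 1 cluster between mt-Nd1 and mt-Nd2, and mt-Tq and mt-Ti share 3 bases on opposite strands. At the other end, mt-Th, for histidine, had 86 and 72 counts in Flag-IP and 151 in IgG-IP, a 1.74-fold decrease (-0.80 ± 0.27; adjusted p = 0.0371). mt-Th was not called with upper-quartile factors (adjusted p = 0.0639) or in the likelihood ratio test (0.137). mt-Te, for glutamate, had 71 and 74 in Flag-IP and 191 in IgG-IP (-1.26 ± 0.27).

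Over the 37 genes the log2 difference between the Flag-IP libraries had an SD of 0.38. It was widest for mt-Td, for aspartate, with 15 and 6 counts in Flag-IP and 60 in IgG-IP, at 1.19 on that scale. The log2 ratios to IgG-IP were -1.69 for Flag-IP 1 and -2.88 for Flag-IP 2. mt-Ts1, for serine, had 17 and 7 counts in Flag-IP and 51 in IgG-IP, with log2 ratios of -1.30 in Flag-IP 1 and -2.49 in Flag-IP 2. For both genes either Flag-IP library lay below IgG-IP, and the size of the decrease differed between the Flag-IP libraries. Counts were low, and the part of counting error in that difference was not tested.

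**Figure D2:**
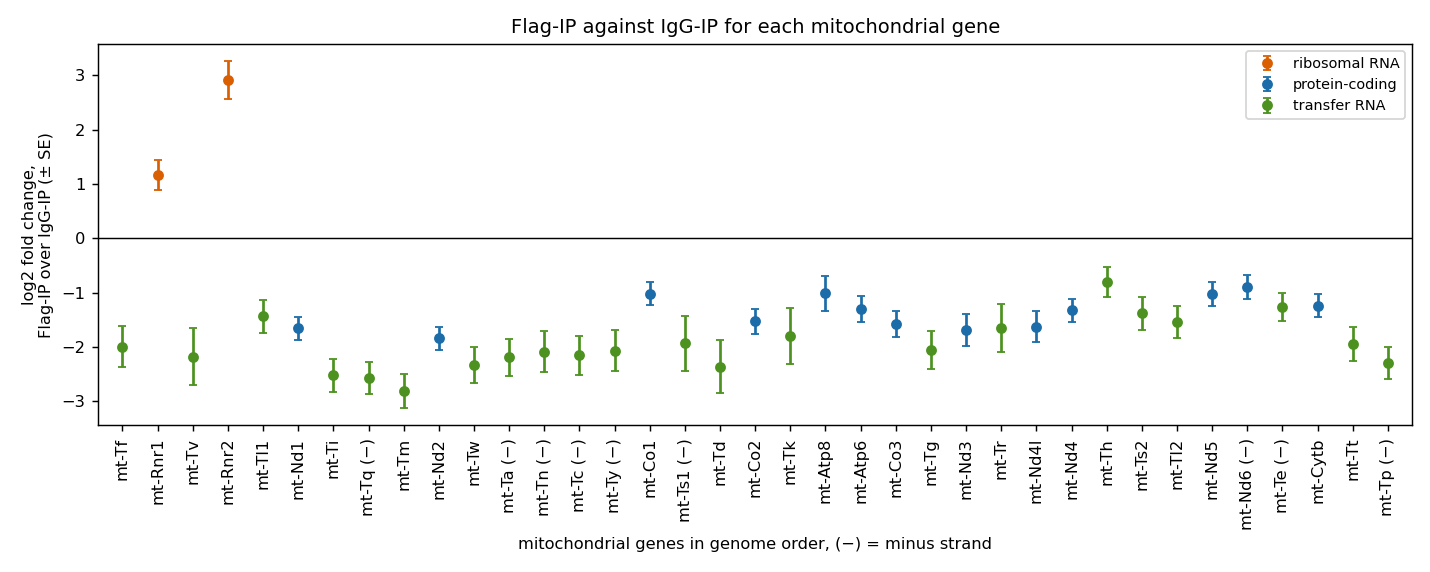
Log2 fold change of Flag-IP over IgG-IP with its standard error for each of the 37 mitochondrial genes in genome order, coloured by class, with minus-strand genes marked. The 2 ribosomal RNA genes lie above 0 at 1.16 and 2.91, and the other 35 lie between -2.81 and -0.80 with TMM factors.

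The direction differed between genes that lie side by side. mt-Tv, for valine, lies between the 2 ribosomal RNA genes with no base to spare (sequence above). It had 9 and 11 counts in Flag-IP and 50 in IgG-IP (log2 fold change -2.18 ± 0.53, SE; edgeR adjusted p = 0.00129), beside 1.16 and 2.91 for the genes on either side. Its call was lost relative to the messengers (-0.92; adjusted p = 0.175) and with the correction for GC content (-1.51; adjusted p = 0.0864). The other transfer RNA genes at the edges of the ribosomal RNA genes fell too. mt-Tf, for phenylalanine, had 23 and 18 counts in Flag-IP and 90 in IgG-IP (-1.99 ± 0.38), and was not called with the correction for GC content (-0.88; adjusted p = 0.235) or relative to the messengers (-0.74; adjusted p = 0.154). mt-Tl1, for leucine, had 49 and 43 in Flag-IP and 137 in IgG-IP (-1.44 ± 0.31). It was called with the correction for GC content (-1.07) and not relative to the messengers (-0.18).

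Along the genome, the clusters of transfer RNA genes differed in their median fold change, and the lowest and highest had separate ranges. The median log2 fold change was -2.57 in the cluster of mt-Ti, mt-Tq and mt-Tm. It was -2.15 in the next one, mt-Tw, mt-Ta, mt-Tn, mt-Tc and mt-Ty, where the 5 genes ranged from -2.33 to -2.07. mt-Tw, for tryptophan, had 31 and 19 counts in Flag-IP and 139 in IgG-IP, and mt-Ta, for alanine, had 27 and 24 against 128. mt-Tn, mt-Tc and mt-Ty had 20 to 24 counts in Flag-IP and 96 to 110 in IgG-IP. In the cluster of mt-Th, mt-Ts2 and mt-Tl2 between mt-Nd4 and mt-Nd5 it was -1.38 (range -1.54 to -0.80), with mt-Ts2 at 48 and 47 counts in Flag-IP and 136 in IgG-IP and mt-Tl2 at 46 and 46 against 147. Behind mt-Cytb, mt-Tt (36 and 35 in Flag-IP, 151 in IgG-IP) and mt-Tp (34 and 41, against 202) had -1.95 and -2.30. Of the 17 transfer RNA genes with a messenger on both sides, 16 lay below the mean fold change of those messengers, and mt-Th lay above it. Among these 16, mt-Tr was level with its messengers (a difference of -0.00016). The other 5 have a messenger on 1 side, mt-Nd1 or mt-Cytb, and 4 lay below it, with mt-Tl1 above. The median difference over all 22 was -0.65 on the log2 scale (transfer RNA minus messenger). Single transfer RNA genes between messengers were mt-Tk, for lysine (11 and 14 in Flag-IP, 48 in IgG-IP), mt-Tg, for glycine (26 and 23, against 112), and mt-Tr, for arginine (23 and 12, against 61), at -1.80, -2.05 and -1.65. Across the 22 genes, the fold change of the transfer RNA gene and that of its flanking messengers had a Spearman's rho of 0.60 and a Pearson's r of 0.56, a description only, since neighbours share precursor RNA, libraries and flanking values.

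Transfer RNA genes on both coding strands had overlapping fold changes. The 14 transfer RNA genes on the plus strand had a median log2 fold change of -1.97 (range -2.81 to -0.80) and the 8 on the minus strand one of -2.12 (range -2.57 to -1.26). Among the messengers the 1 minus-strand gene, mt-Nd6, lay at -0.89, outside the -1.84 to -1.01 of the 12 on the plus strand. The minus-strand transfer RNA genes took 35.1% and 37.7% of all transfer RNA counts in Flag-IP and 39.8% in IgG-IP. The exact 95% binomial interval of the IgG-IP share, 37.9% to 41.6%, overlapped those of both Flag-IP libraries. Such intervals cover counting error only. mt-Nd6 took 10.6% and 12.98% of the protein-coding counts in Flag-IP and 9.11% in IgG-IP. The exact 95% intervals of these shares, 9.72% to 11.5% and 11.99% to 14.03% in Flag-IP, did not overlap that of IgG-IP, 8.59% to 9.65%. The intervals of the Flag-IP libraries did not overlap each other either, so the spread between libraries exceeded counting error. The strand setting of the counting is not known here, so counts from the 2 strands of overlapping genes cannot be told apart. Outside overlaps too, the counts of a gene may include precursor RNA of the opposite strand, and its part in these values was not tested.

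Levels per kilobase placed the messengers in an order that was similar in all libraries (Spearman's rho of 0.96 across the 13 genes between the Flag-IP mean and IgG-IP, which share gene lengths and mapping). mt-Nd6 was highest with 927 and 1069 counts per kilobase in Flag-IP and 2031 in IgG-IP. mt-Nd5 followed with 632 and 619 in Flag-IP and 1399 in IgG-IP, and mt-Cytb with 580 and 530 against 1444. mt-Nd5 and mt-Cytb were close to each other, and their order was the reverse in IgG-IP. mt-Co3 was lowest in the Flag-IP mean, with 114 and 96.9 counts per kilobase in Flag-IP and 346 in IgG-IP. In Flag-IP 2 alone mt-Nd3 was lower, at 89.1. For scale, the median tested nuclear protein-coding gene had 7.78, 8.43 and 8.49 counts per kilobase of its longest transcript, Flag-IP libraries first. The ribosomal RNAs were far above the messengers, with 418160 and 411380 counts per kilobase in Flag-IP and 60643 in IgG-IP for mt-Rnr2.

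A stretch of the genome whose messengers had a low median level has a near-identical copy in the nuclear genome. Searched against all annotated nuclear transcripts, 7 of the 13 protein-coding genes matched pseudogenes on chromosome 1 (24611535 to 24616197, GRCm38) over at least 100 bases, from mt-Co1 position 1063 to mt-Nd4 position 876. The identity was 100% for mt-Co2, mt-Atp6, mt-Co3, mt-Nd4l and mt-Nd4, 99.8% for mt-Co1 and 99.7% for mt-Nd3, and the copies lie in the same order with nearly equal spacing. The stretch, mitochondrial positions 6390 to 11042, holds 8 messengers with mt-Atp8 included and 5 transfer RNA genes. Messengers in it had a median of 170 counts per kilobase in the Flag-IP mean and 522 in IgG-IP, while the 5 outside it had 555 in Flag-IP and 1399 in IgG-IP. The ranges inside and outside overlapped in the Flag-IP mean (105 to 387 and 311 to 998). In IgG-IP they were separate but nearly met (345.66 to 1069.7 and 1080.5 to 2030.8). The medians of the transfer RNA genes showed the same order, with 192 in Flag-IP and 857 in IgG-IP inside, and 442 in Flag-IP and 2075 in IgG-IP outside. Their ranges overlapped in Flag-IP (150 to 360 inside, 145 to 1179 outside) and in IgG-IP (738 to 1647 and 725 to 3127). How reads with several placements were counted is not known here, and its part in these levels was not tested.

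Gm10222, the chromosome 1 copy of mt-Nd4l, is the only chromosome 1 copy found by the search that is in the count table. The other chromosome 1 copies found have no counts of their own there. It had 49 and 62 counts in Flag-IP and 132 in IgG-IP (log2 fold change -1.12 ± 0.30, SE; edgeR adjusted p = 0.00446), close to the 65 and 42 against 182 of mt-Nd4l itself. mt-Nd4l and Gm10222 together had 114 and 104 counts in Flag-IP and 314 in IgG-IP. A more distant copy of mt-Co1 on chromosome 2, Gm13340, with 97.6% identity, had 2 and 3 counts in Flag-IP and 17 in IgG-IP. Messengers outside the chromosome 1 stretch have copies too, Gm13339 for mt-Nd2 (96.7% identity over 510 bases; 2 and 2 counts in Flag-IP, 13 in IgG-IP) and Gm4076 for mt-Nd5 (95.2% over 954 bases; 2 and 0 counts, against 0). Of the 5 copies with counts that the search found, 3 were tested, and of these Gm10222 was called. Fold changes overlapped between the messengers inside and outside the chromosome 1 stretch. The median log2 fold change was -1.43 for messengers inside it and -1.24 outside, with overlapping ranges (-1.68 to -1.01 and -1.84 to -0.89).

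Shares within the mitochondrial counts do not depend on the scaling across nuclear genes. The ribosomal RNA genes took 99.3% of mitochondrial counts in either Flag-IP library and 89.2% in IgG-IP. The messengers took 0.641% and 0.606% in Flag-IP and 8.74% in IgG-IP, and the transfer RNA genes 0.0987% and 0.0924% in Flag-IP and 2.08% in IgG-IP. The ratio of ribosomal to messenger counts was 155 and 164 in Flag-IP and 10.2 in IgG-IP. Within the ribosomal RNAs, mt-Rnr2 had 16.3 and 13.1 times the counts of mt-Rnr1 in Flag-IP and 4.35 times in IgG-IP, a ratio 3.75-fold and 3.02-fold that of IgG-IP. The ratio of transfer RNA to messenger counts was 0.154 and 0.153 in Flag-IP and 0.239 in IgG-IP. In each ratio the Flag-IP libraries lay closer to each other than to IgG-IP. With 2 libraries against 1, no permutation test can reach the threshold, and none is given for these shares.

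**Figure D3:**
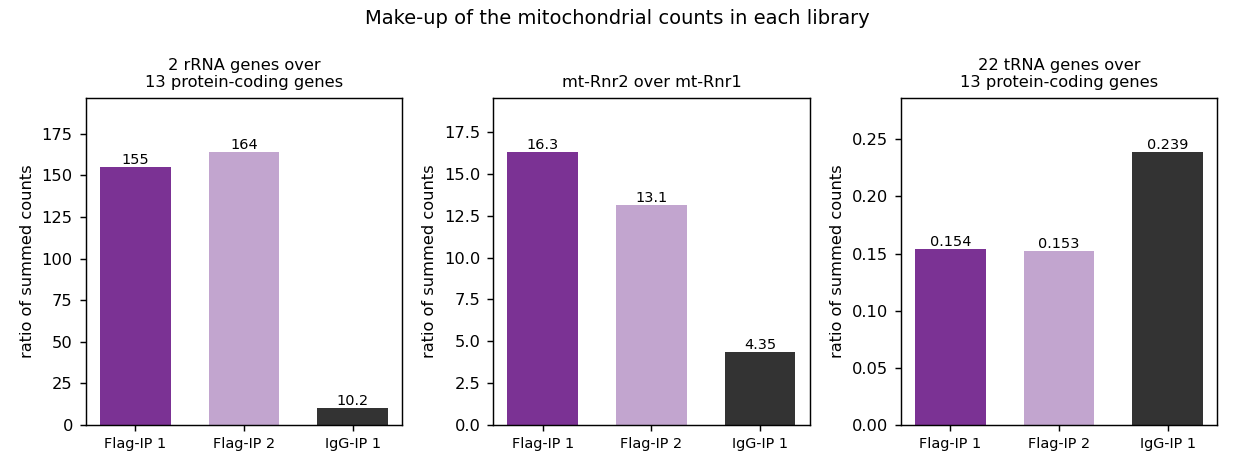
Ratios of summed counts within the mitochondrial genome, 1 bar per library with its value, on axes that start at 0. Ribosomal RNA over messenger counts was 155 and 164 in Flag-IP and 10.2 in IgG-IP, and transfer RNA over messenger counts was 0.154 and 0.153 in Flag-IP and 0.239 in IgG-IP.

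A further fit, scaled to the 13 messengers, compared the other classes with them. Both ribosomal RNA genes were higher in that fit (log2 fold change 4.17 for mt-Rnr2 and 2.43 for mt-Rnr1), as were 51.4% of all tested genes, since this scaling moved the median of all genes by 1.25. Of the 22 transfer RNA genes, 6 were lower by edgeR at an adjusted p under 0.05, beside 0.216% of all tested genes called lower. The 6 were mt-Tm (-1.54), mt-Tq (-1.31), mt-Ti (-1.26), mt-Tw (-1.08), mt-Tp (-1.03) and mt-Ta (-0.93). The other 16 did not pass, and their values ran up to 0.46 for mt-Th. The median over all 22 was -0.81.

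GC content moved with the comparison across nuclear genes, and the mitochondrial genes lie at its low end. Over the 9071 nuclear coding genes that averaged 20 counts or more, Spearman's rho between transcript GC and log2 fold change was 0.64, a description across genes that are not independent. The 69 nuclear genes with 34 to 36% GC had a median log2 fold change of -0.75 with quartiles of -0.96 and -0.44. mt-Rnr1 and mt-Rnr2 have 35.8% and 35.4% GC and were at 1.16 and 2.91. The messengers have a median GC of 37.1% and the transfer RNA genes one of 34.1%. The value of the nuclear trend was -0.86 at the GC of mt-Rnr1 and -0.88 at that of mt-Rnr2. It ran from -1.06 to -0.56 over the messengers and from -1.55 to -0.30 over the transfer RNA genes.

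**Figure D4:**
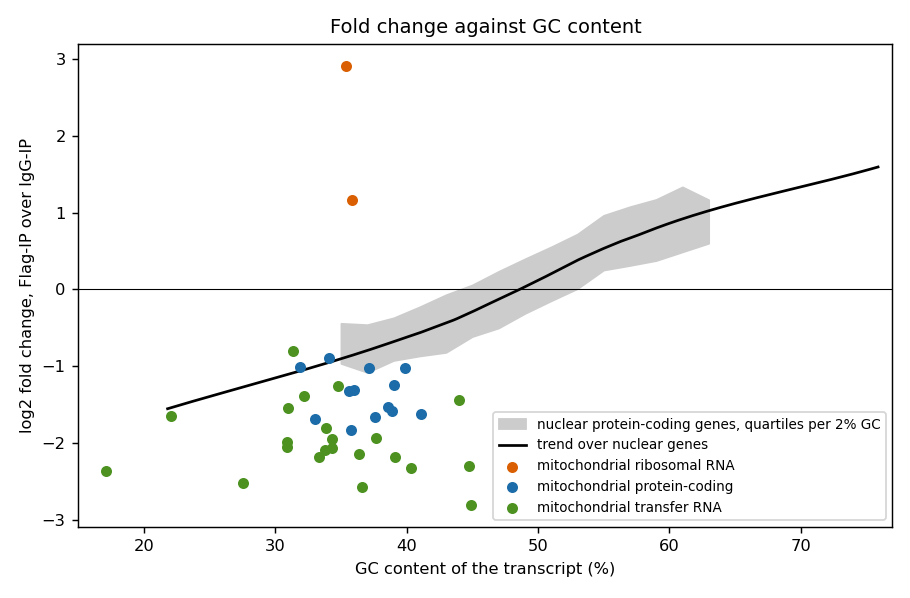
Log2 fold change of Flag-IP over IgG-IP against transcript GC content, with points for mitochondrial genes by class, a grey band for the quartiles of nuclear protein-coding genes in 2% bins of at least 20 genes, and a black line for their trend. The 2 ribosomal RNA genes lie far above the band at 35.8% and 35.4% GC, messengers lie near or below the line, and most transfer RNA genes lie below it.

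With that nuclear trend entered as an offset, both ribosomal RNA genes were higher (3.79 for mt-Rnr2 and 2.02 for mt-Rnr1 on the log2 scale), beside 2.32% of all tested genes. Of the messengers, 5 of 13 were lower, beside 1.88% of all tested genes, and the median was -0.57. The 5 were mt-Nd4l (-1.07), mt-Nd2 (-0.97), mt-Nd1 (-0.90), mt-Co3 (-0.89) and mt-Co2 (-0.83). Of the transfer RNA genes, 9 of 22 were lower, with a median of -1.10. They were led by mt-Tm (-2.51), mt-Tp (-1.99), mt-Tq (-1.76) and mt-Tw (-1.73). Of these, mt-Tm and mt-Tp have 44.9% and 44.8% GC, where the nuclear trend lay closest to 0 among the transfer RNA genes. Values were above 0, without passing, for mt-Nd6 (0.056), mt-Atp8 (0.047) and mt-Th (0.29). Below 34% GC the trend rests on 15 nuclear genes, and 2 messengers and 11 transfer RNA genes lie there. Among the 11 transfer RNA genes above that edge, 7 were lower with the offset and the median was -1.32.

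**Figure D5:**
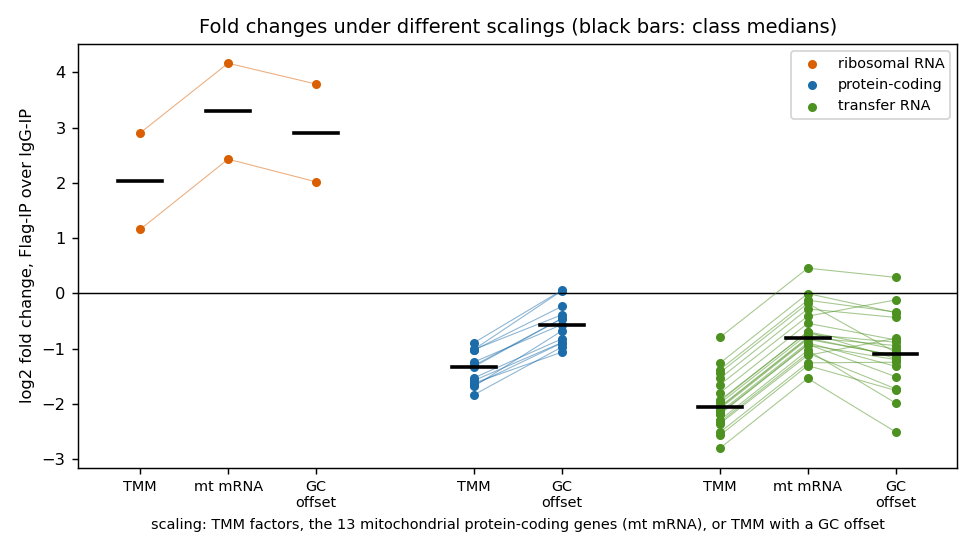
Log2 fold changes of single mitochondrial genes (points joined by lines) with TMM factors, relative to the 13 mitochondrial messengers, and with the GC trend as an offset, by class, with black bars for the medians. The ribosomal RNA genes stay above 0 in each, while the transfer RNA median moves between -2.06, -0.81 and -1.10 and the messenger median between -1.33 and -0.57, with mt-Nd6, mt-Atp8 and mt-Th above 0 under the offset and mt-Th above 0 relative to messengers.

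Nuclear genes on lists of factors for these RNAs were counted beside the 5.58% of all tested genes called higher and the 5.77% called lower. Of 34 tested factors of mitochondrial transcription, RNA processing and decay, 1 passed and was lower, Tfb1m, the methyltransferase that modifies the small ribosomal RNA (10 and 20 counts in Flag-IP, 52 in IgG-IP; log2 fold change -1.66 ± 0.48, SE). The median was -0.01 over the 35 entries of this list, since Nsun4 stands in the table under 2 identifiers. Of 37 tested mitochondrial ribosomal protein genes, Mrps24 (17 and 31 counts in Flag-IP, 6 in IgG-IP) and Mrpl48 (158 and 166, against 105) were the 2 that passed, both higher, and the list's median was -0.31. The list of mitochondrial aminoacyl-transfer RNA synthetases and their partners is not limited to enzymes that act only in mitochondria. Of its 19 tested genes, 3 passed and all 3 were higher, and the list's median was 0.36. Those were Kars, for lysine (29 and 42 in Flag-IP, 10 in IgG-IP), Iars2, for isoleucine (52 and 45, against 16), and Lars2, for leucine (83820 and 65807, against 35358). Lars2 held nearly all counts of its list, and which part of the gene they came from is not known here.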

How the data were processed

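The authors deposited a table of raw counts per Ensembl gene, with 1 column per library and no normalization. CASAVA 1.7, Bowtie 0.12.2 and the build mm8 are named in the submitters' processing notes, without a role. In the sources used here no counting program, annotation, strand setting or rule for reads with several placements is given. Positions, GC and sequences come from GENCODE M21 on GRCm38, matched by identifier (37693 of 39179 genes), and none are in mm8.

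Genes were kept by filterByExpr with a minimum count of 10 (17587 genes, all 37 mitochondrial genes among them) and scaled by TMM factors of 0.840 and 0.936 for the Flag-IP libraries and 1.27 for IgG-IP. Flag-IP was tested against IgG-IP with edgeR 4.0.16 (R 4.3.3), by the quasi-likelihood test over the whole table with Benjamini-Hochberg adjustment at 0.05. The fit has 1 residual degree of freedom, and the prior degrees of freedom were infinite for all genes. Standard errors therefore rest on a spread shared between genes and not on each gene's own. The common dispersion (biological coefficient of variation 0.189) was the single value for all genes in the likelihood ratio test only. There mt-Nd2 had an adjusted p of 3.28e-06, against 1.07e-15 with the quasi-likelihood test. Normalised counts are counts divided by effective library size and multiplied by its mean. Log2 ratios of single libraries used a prior count of 2. The GC trend was a local regression with span 0.5 over nuclear protein-coding genes. Nuclear copies were sought with blastn at an identity of at least 95% over at least 100 bases.

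The text names any of the 37 mitochondrial genes and, from each further list, up to 4 genes past the threshold in each direction by size of fold change. Gm13340, Gm13339, Gm4076, Nsun4 and the marker genes were named outside that rule, after their values were seen. The members and lists were chosen with earlier results of these data known. The deposited lipid gene list holds no mitochondrial gene and was not used.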

Additional observations from a re-analysis of the deposited data

How the results depend on the processing

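All 37 mitochondrial genes kept the direction of their fold change with RLE factors, total counts, upper-quartile factors, no filter and either Flag-IP library alone, and those left by a mean of at least 50 counts did too. That filter left 14 transfer RNA genes, and all 14 were lower. The direction was reversed with the GC offset, added after seeing the data, for mt-Nd6 (0.056), mt-Atp8 (0.047) and mt-Th (0.29), and relative to the 13 messengers for mt-Th (0.46). With the GC offset 5 messengers and 9 transfer RNA genes were lower. Against a 1.5-fold change 1 ribosomal RNA gene was higher, with 9 messengers and 19 transfer RNA genes lower. DESeq2 1.42.0 gave adjusted p-values for 2 ribosomal RNA genes, both higher, 10 messengers, all lower, and no transfer RNA gene, having none for 15684 genes. Over all genes it called 131 higher and 145 lower. Total counts moved the median of all genes by -0.52 and called 342 higher and 3008 lower.

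Median log2 fold changes of ribosomal RNA genes were 1.52 with total counts, 2.10 with upper-quartile factors, 1.98 without a filter, 2.13 with a mean of at least 50 counts, 3.30 relative to messengers and 2.91 with the GC offset. For messengers they were -1.85 with total counts and -0.57 with the GC offset. For transfer RNA genes they were -2.58 with total counts, -0.81 relative to messengers and -1.10 with the GC offset. Leaving out 1 Flag-IP library gave medians of 2.03 to 2.04, -1.51 to -1.16 and -2.11 to -1.83 for ribosomal RNA, messenger and transfer RNA genes. These single-library values have no test, since no residual degrees of freedom are left. With mt-Rnr2 left out, mt-Rnr1 took 89.8%, messengers 8.86% and transfer RNA genes 1.36% of mitochondrial counts in Flag-IP. The shares in IgG-IP were 60.6%, 31.8% and 7.58%. No paired analysis was possible, since IgG-IP has 1 library and the library titles do not tell which libraries share a lysate. Low counts limit the transfer RNA genes most, and the lone IgG-IP library limits all values.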
